A study of Mus musculus with 6 samples.

Results

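The transcripts described here are those of red blood cells and platelets that were sequenced along with a piece of mouse lung. They are 10 genes, taken by symbol from the 19639 rows of the deposited count table: the haemoglobin chain genes Hba-a1, Hba-a2, Hbb-bs and Hbb-bt, the heme synthesis gene Alas2, the platelet chemokine genes Pf4 and Ppbp, and the platelet receptor genes Itga2b, Gp9 and Gp1bb. All 10 were in the table, and 9 had enough counts to be tested, all but Gp1bb. The lungs came from RPM mice, a name used in this field for animals that develop small cell lung cancer after loss of Rb1 and Trp53 and gain of Myc. In 3 libraries the animals carried a control hairpin delivered by lentivirus (shControl), and in the other 3 a hairpin against Thoc1 (shThoc1), which encodes a subunit of the complex that links transcription to mRNA export. All 6 libraries thus share the RPM background and a lentiviral infection. The sources used here do not give the age, sex or strain of the animals, the Cre driver, the tumour share of each piece or any flushing of blood before lysis, nor do they say that the libraries of a group are separate animals. The p-values therefore measure the spread between these libraries, which may be technical.

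Mature red cells of mammals have no nucleus, but young ones leave the marrow with mRNA that is almost entirely globin. Haemoglobin is a tetramer of alpha and beta chains, and each chain holds a heme group whose synthesis in erythroid cells is started by ALAS2. Platelets are fragments of megakaryocytes that carry a stock of mRNA. Their granules hold the chemokines PF4 (CXCL4) and PPBP (CXCL7), and their surface carries the fibrinogen receptor, of which ITGA2B (CD41) is the alpha subunit, and the von Willebrand factor receptor, to which GP9 and GP1BB belong. The mouse lung is also a site where megakaryocytes release platelets. In a bulk library, a lower level of such a transcript can mean fewer blood cells or less RNA in each, and these cannot be told apart.

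The depth ran from 9934583 to 15025199 counts per library. Thoc1, the hairpin target, was at 85.7, 80.2 and 85.8 counts per 1000000 (CPM, scaled by TMM) across shControl replicates 1 to 3 and at 53.4, 69.5 and 61.4 CPM across shThoc1 replicates 1 to 3, without overlap (edgeR log2 fold change −0.45, SE 0.17, adjusted p = 0.304). One library stood apart from the rest in its tissue markers. In shThoc1 replicate 2, Sftpc, the surfactant gene of alveolar type 2 cells, was at 161 CPM against 2983 to 12597 CPM in the other libraries, and Ucp1, the uncoupling protein of brown fat, was at 361 CPM against at most 0.586 CPM. The labelled tissue, lung, was otherwise matched by Sftpc and by the club cell gene Scgb1a1, at 6756 to 21909 CPM in the 6 libraries. The main counts, sums, ratios and fold changes are given with and without this library below.

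The copies within each globin pair are hard to separate by sequence, and their counts have to be read with that in view. In GENCODE mouse release M21 (GRCm38), the coding sequences of Hba-a1 and Hba-a2, both on chromosome 11, have 426 bases and differ at 1 of them, C381T counted from the first base of the start codon. Those of Hbb-bs and Hbb-bt, both on chromosome 7, have 441 bases and also differ at 1, C417T. Of the runs of 50 bases in the coding sequence, 87.8% of those of Hba-a2 occur in Hba-a1, and 93.6% of those of Hbb-bt occur in Hbb-bs. The stretches around the differing base, shown because this base is all that separates the copies in the coding region, read as follows, with that base in capitals.
Hba-a1: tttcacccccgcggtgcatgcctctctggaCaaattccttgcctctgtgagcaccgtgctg
Hba-a2: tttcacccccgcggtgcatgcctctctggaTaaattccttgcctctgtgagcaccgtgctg
Hbb-bs: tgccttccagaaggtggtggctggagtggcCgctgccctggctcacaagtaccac
Hbb-bt: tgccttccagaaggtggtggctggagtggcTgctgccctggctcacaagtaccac
How the authors assigned reads that fit both copies is not given in the sources used here. The split of each pair is therefore uncertain, while the sum of the alpha pair is less so. A further row, Hbb-b1, has the same 6 counts as Hbb-bs and was left out of every sum here. Whether it repeats that record or holds a part of the reads is not known. Were it added, the beta and globin sums would be higher, and the alpha share, the Hbb-bt share and the ratios to globin lower.

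Globin transcripts made up 0.0645% to 0.698% of all counts in a library. Their summed level was 775, 1454 and 636 CPM across shControl replicates 1 to 3 and 7291, 1366 and 2364 CPM across shThoc1 replicates 1 to 3. The mean was 955 ± 437 CPM with the control hairpin and 3674 ± 3172 CPM with the Thoc1 hairpin (SD, n = 3 per group), a ratio of 3.85. The libraries spanned an 11.5-fold range, and most of it came from shThoc1 replicate 1, which held more globin RNA than the other 5 libraries. The groups overlapped, since shThoc1 replicate 2 lay under shControl replicate 2. Without shThoc1 replicate 1 the difference between the group means was 910 CPM instead of 2719 CPM, and without shThoc1 replicate 2 it was 3872 CPM, with a ratio of 5.05 and no overlap.

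The alpha chain genes took most of the globin counts. Hba-a1 was at 310, 574 and 257 CPM across shControl replicates 1 to 3 and at 2608, 536 and 898 CPM across shThoc1 replicates 1 to 3. Its groups overlapped by a narrow margin (edgeR log2 fold change 1.82, SE 0.67, adjusted p = 0.304). Hba-a2 was at 304, 535 and 243 CPM with the control hairpin and at 2975, 545 and 894 CPM with the Thoc1 hairpin, and here the groups did not overlap, with shThoc1 replicate 2 just above shControl replicate 2 (log2 fold change 2.03, SE 0.72, adjusted p = 0.304 by edgeR). The beta chain gene Hbb-bs was at 160, 343 and 135 CPM with the control hairpin and at 1688, 283 and 566 CPM with the Thoc1 hairpin, with overlap (log2 fold change 1.99, SE 0.75, adjusted p = 0.304 by edgeR). Hbb-bt, the other adult beta chain gene, had far lower values, 0.770, 1.43 and 0.952 CPM with the control hairpin and 19.3, 1.78 and 5.65 CPM with the Thoc1 hairpin, without overlap (log2 fold change 3.08, SE 0.92, adjusted p = 0.304 by edgeR). Among the 9 tested members this was the largest fold change, on 11 to 278 counts per library. In all 4 genes shThoc1 replicate 1 was highest and shThoc1 replicate 3 came next.

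**Figure D1:**
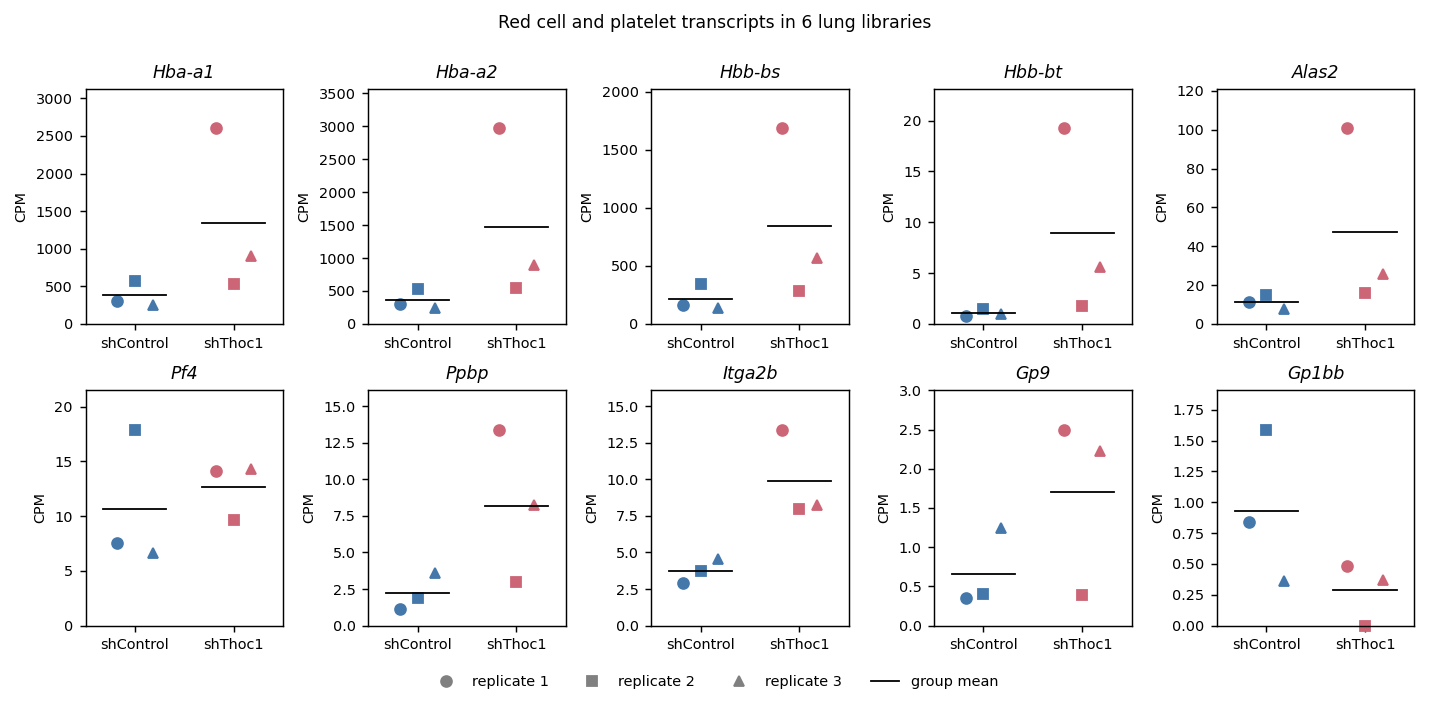
CPM of the 10 transcripts (vertical axis, linear, a separate scale for each gene) in shControl and shThoc1, with 1 point per library shaped by replicate number and a line at the group mean. The globin and Alas2 panels show shThoc1 replicate 1 far above the rest (Hba-a1 at 2608 CPM against at most 898 CPM elsewhere), Pf4 shows overlapping groups, and Gp1bb has a lower mean in shThoc1 with overlap.

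The genes with no overlap and higher values in shThoc1 were Hba-a2, Hbb-bt, Alas2 and Itga2b, 4 of the 10 members. Of all 15287 tested genes, 11.1% showed the same. With upper quartile scaling Hba-a1 joined them, which makes 5. Without shThoc1 replicate 2 they were 8 members, with Hba-a1, Hbb-bs, Ppbp and Gp9 added, against 28% of all tested genes. Without shControl replicate 2 they were 7, with Hba-a1, Hbb-bs and Pf4 added, against 21.7%, and without any other library 4 or 5. For each of these 4 genes an exact two-sided permutation test on log2(CPM + 0.5) gave p = 0.1, and with 20 ways to label 6 libraries no lower p could be had. No member passed edgeR's quasi-likelihood test after adjustment over all tested genes, and of all 15287 genes 0 passed (0%), while 2473 had an unadjusted p under 0.05 and a DESeq2 fit called 929. Among the members 7 had an unadjusted p under 0.05, all higher in shThoc1, against 6.93% of all tested genes that were higher with such a p. These 7 include the 4 globin genes, whose copies share most of their coding sequence, so they cannot be counted as separate observations. The median log2 fold change was 1.89 over the 9 tested members and 0.03 over all tested genes, of which 52.1% lay above 0.

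At an adjusted p under 0.05, the authors' deposited table, whose columns are named as in DESeq2, has a pair of members, Hbb-bt (log2 fold change 3.07, adjusted p = 0.022) and Itga2b (log2 fold change 1.39, adjusted p = 0.0196). In the authors' deposited table, 2.04% of the genes with an adjusted p are higher in shThoc1 at that threshold. A DESeq2 fit made here from the counts called the same 2 of the 10 members, with an adjusted p of 0.0215 and 0.0191, against 2.12% of its genes that were higher. A limma-voom fit with sample quality weights called 7 of the 9 tested members higher, all but Hbb-bt and Alas2, against 20.4% of all tested genes. It gave shThoc1 replicate 2 a weight of 0.139 and shControl replicate 2 a weight of 0.359, and shThoc1 replicate 3 a weight of 4.42, so the library that stood apart counted least and shThoc1 replicate 3 counted most.

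Within a library, the alpha chain share and the ratio of Alas2 to globin moved little while the globin level moved 11.5-fold, but the share of Hbb-bt moved 2.71-fold. Alpha chain counts were 79.2%, 76.3% and 78.6% of all globin counts across shControl replicates 1 to 3 and 76.6%, 79.2% and 75.8% across shThoc1 replicates 1 to 3. The 95% Wilson intervals of these shares, which cover counting error only, were narrow, the widest from 77.7% to 79.4% in shControl replicate 3. Hba-a2 took 49.5%, 48.2% and 48.5% of the alpha counts in shControl and 53.3%, 50.4% and 49.9% in shThoc1. These groups did not overlap, but shControl replicate 1 and shThoc1 replicate 3 had overlapping intervals (48.5% to 50.6% and 49.3% to 50.5%). Hbb-bt took 0.478%, 0.417% and 0.698% of the beta counts in shControl and 1.13%, 0.624% and 0.988% in shThoc1, with overlap between the groups and wide intervals, from 0.408% to 1.19% in shControl replicate 3. Without shThoc1 replicate 2 the mean shares in shThoc1 were 76.2% for the alpha chains, 51.6% for Hba-a2 and 1.06% for Hbb-bt, and Hbb-bt no longer overlapped.

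Alas2 followed globin closely. The gene encodes the erythroid form of 5-aminolevulinate synthase, the first enzyme of heme synthesis, and lies on the X chromosome. Its level was 11.1, 14.7 and 7.69 CPM across shControl replicates 1 to 3 and 101, 15.7 and 25.6 CPM across shThoc1 replicates 1 to 3, without overlap (edgeR log2 fold change 2.09, SE 0.75, adjusted p = 0.304). Relative to globin it was 14.4, 10.1 and 12.1 counts per 1000 globin counts in shControl and 13.9, 11.5 and 10.8 in shThoc1. The means were 12.2 ± 2.12 and 12.1 ± 1.62 (SD, n = 3 per group), so the ratio differed between the groups by less than the spread between replicates. Without shThoc1 replicate 2 the shThoc1 mean was 12.4. In RefSeq (GRCm38.p6) the gene overlaps Apex2, a DNA repair endonuclease gene, and without strand the reads of both cannot be told apart. Apex2 did not share the pattern, at 18.8, 16.4 and 14.8 CPM with the control hairpin and 9.87, 16.3 and 9.21 CPM with the Thoc1 hairpin.

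**Figure D2:**
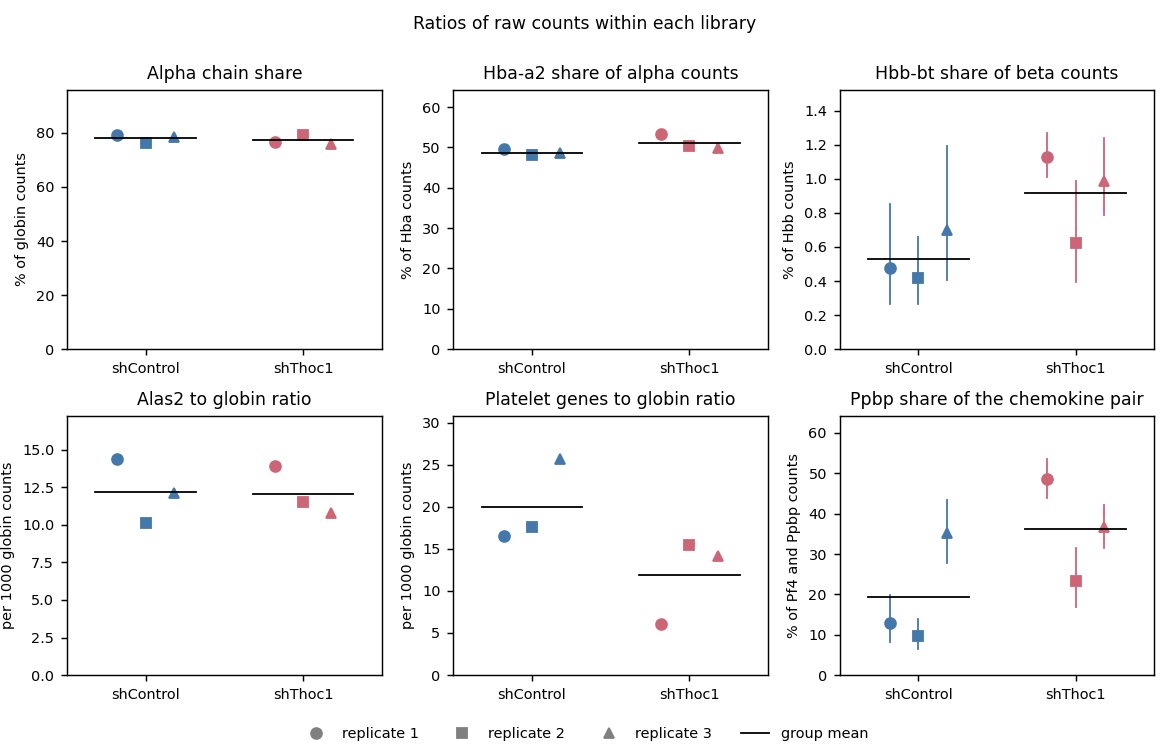
Ratios of raw counts within each library (vertical axes, percent or counts per 1000 globin counts, all from 0), with 1 point per library, a line at the group mean and, for shares, bars for the 95% Wilson interval. Alpha chain share and the Alas2 to globin ratio are level (10.1 to 14.4 for Alas2), while the platelet to globin ratio runs from 6.02 to 25.7.

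The starts of the red cell genes are shown because these genes shared one order of libraries at the top, and because the promoters of the beta pair differ far more than their coding sequences. All 10 members matched the RefSeq promoter table (GRCm38.p6) by symbol, and the 250 bases before each start were read from it. Capitals mark GATA words, which are GATA with A or T before it and A or G after it, and CACCC words. Both strands were searched, so a word on the other strand appears as its reverse complement. No match overlaps another.
Hba-a1 (chr11:32283422-32283671, plus strand): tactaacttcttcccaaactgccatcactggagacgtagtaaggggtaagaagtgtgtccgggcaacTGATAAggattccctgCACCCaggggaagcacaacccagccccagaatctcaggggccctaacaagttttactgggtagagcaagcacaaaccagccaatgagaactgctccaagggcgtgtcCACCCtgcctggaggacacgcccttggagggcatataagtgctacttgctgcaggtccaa
Hbb-bs (chr7:103827929-103828178, minus strand): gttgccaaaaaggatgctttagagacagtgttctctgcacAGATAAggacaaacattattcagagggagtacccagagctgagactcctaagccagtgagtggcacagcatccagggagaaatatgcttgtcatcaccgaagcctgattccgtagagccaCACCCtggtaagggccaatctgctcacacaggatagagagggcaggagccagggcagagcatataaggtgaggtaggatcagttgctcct
Hbb-bt (chr7:103813924-103814173, minus strand): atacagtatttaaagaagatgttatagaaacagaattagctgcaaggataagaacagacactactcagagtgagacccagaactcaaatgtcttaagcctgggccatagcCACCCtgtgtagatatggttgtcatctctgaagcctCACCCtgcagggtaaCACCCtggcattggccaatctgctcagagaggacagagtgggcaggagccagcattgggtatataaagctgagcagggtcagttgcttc
Alas2 (chrX:150547167-150547416, plus strand): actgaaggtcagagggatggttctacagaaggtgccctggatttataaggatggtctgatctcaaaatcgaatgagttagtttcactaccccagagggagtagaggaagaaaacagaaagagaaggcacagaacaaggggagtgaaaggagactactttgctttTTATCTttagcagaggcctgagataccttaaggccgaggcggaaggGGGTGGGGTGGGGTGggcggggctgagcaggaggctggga
GATA words are the core of sites for GATA factors, and CACCC words of sites for Krüppel-like factors. A GATA word was present in 4 of the 5 red cell members, all but Hbb-bt, and in 1 of the 5 platelet members, Gp1bb, against 27.1% of 27025 promoter windows of this length. A CACCC word was present in all 5 red cell members and in 2 platelet members, against 51.3% of windows. A match is a description of these letters and not evidence of a bound site. The windows of Hba-a1 and Hba-a2 share a run of 247 bases, and the longest run shared by the windows of Hbb-bs and Hbb-bt is 14 bases.

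Other red cell genes were scarce or came with other cell types. Of 23 further red cell genes 18 were in the table, and 5 of these had under 10 counts in every library. Slc4a1, the anion exchanger gene of the red cell membrane, had 1 to 15 counts, the 15 of them in shThoc1 replicate 1, and was singled out after its values were seen. Of the 9 tested genes in the list 5 lay above 0 and 4 below, with a median log2 fold change of 0.21 and none called by edgeR. The ankyrin gene Ank1 was at 8.80 ± 6.82 CPM with the control hairpin and 2.15 ± 0.487 CPM with the Thoc1 hairpin, and the adducin gene Add2 at 24.0 ± 24.1 and 1.75 ± 2.42 CPM (SD, 3 libraries each). Both were highest in shControl replicates 1 and 3, as were the neuroendocrine transcripts given below, and neurons also make both. Epb41 and Tmod1, with the highest levels in the list, were at 144 ± 29.5 and 194 ± 71.1 CPM and at 46.9 ± 16.3 and 71.8 ± 56.7 CPM. Both are made in many tissues.

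Regulators of erythroid and megakaryocyte genes gave a mixed picture. Klf1, the erythroid Krüppel-like factor, had 1 to 3 counts, and Gata1, the master regulator of both lineages, had 1 to 10 counts. These levels are too low for a comparison. Among the 7 tested regulators, 6 lay above 0, the median log2 fold change was 0.73 and none was called by edgeR. Lmo2, a bridging partner of GATA and TAL1 factors that endothelial cells also make, was at 16.7, 27.6 and 13.2 CPM with the control hairpin and 63.4, 47.4 and 37.3 CPM with the Thoc1 hairpin, without overlap (edgeR log2 fold change 1.37, SE 0.36, adjusted p = 0.304). The authors' deposited table has an adjusted p of 0.0274 for Lmo2. Runx1 was at 39 ± 4.98 and 54.5 ± 4.65 CPM and the GATA cofactor gene Zfpm1 at 4.45 ± 1.39 and 8.93 ± 3.04 CPM, both without overlap. Fli1 was at 38.4 ± 27.9 and 36.4 ± 1.25 CPM (SD, 3 libraries each).

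The other genes of heme synthesis had smaller fold changes than Alas2. All 10 further genes of the pathway were tested, 6 lay above 0, the median log2 fold change was 0.32, and none was called by edgeR. Alas1, the form of the first enzyme found in all tissues, was at 154, 234 and 314 CPM with the control hairpin and 552, 322 and 645 CPM with the Thoc1 hairpin, without overlap (edgeR log2 fold change 1.11, SE 0.38, adjusted p = 0.304). Its order differed from that of Alas2, with shThoc1 replicate 3 above replicate 1. The mitochondrial glycine carrier Slc25a38 was at 18.0 ± 3.82 and 25.9 ± 2.24 CPM, and Ppox at 43.8 ± 7.52 and 56.2 ± 2.14 CPM (SD, 3 libraries each). Genes that clear heme and haemoglobin gave 7 of 12 above 0 and a median of 0.17, with none called by edgeR. Haptoglobin (Hp), which binds free haemoglobin and is also an acute phase gene of the lung, was at 774 ± 228 and 1138 ± 336 CPM, the ferritin chain gene Fth1 at 1286 ± 403 and 1493 ± 449 CPM, the biliverdin reductase genes Blvrb at 14.3 ± 2.85 and 21.9 ± 3.55 CPM and Blvra at 28.4 ± 2.80 and 22.5 ± 3.08 CPM, and the heme transporter gene Slc48a1 at 86.3 ± 13.5 and 132 ± 42.2 CPM.

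Of the 9 other globin genes listed, 4 were in the table. Myoglobin (Mb), the oxygen store of muscle, was at 15.5 ± 24.5 CPM with the control hairpin and 15.5 ± 10.7 CPM with the Thoc1 hairpin, cytoglobin (Cygb) of fibroblasts at 17.1 ± 3.71 and 18.9 ± 4.22 CPM, and neuroglobin (Ngb) at 1.25 ± 0.455 and 3.42 ± 2.72 CPM (SD, 3 libraries each). Their median log2 fold change was 0.14. Hbq1a, the theta chain gene beside the alpha genes, had 0 to 3 counts. In all 4 the groups overlapped.

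Platelet transcripts took few of the counts, 183 to 632 per library over the 5 members. Their summed level was 12.8, 25.6 and 16.3 CPM across shControl replicates 1 to 3 and 43.9, 21 and 33.4 CPM across shThoc1 replicates 1 to 3. The means were 18.2 ± 6.59 and 32.8 ± 11.5 CPM (SD, 3 libraries each), a ratio of 1.80, and the groups overlapped. The range over the libraries was 3.43-fold. Without shThoc1 replicate 1 the difference between the means was 8.96 CPM instead of 14.5 CPM, and without shThoc1 replicate 2 it was 20.4 CPM, with a ratio of 2.12 and no overlap. The groups shared the order seen for globin at the top, with shThoc1 replicates 1 and 3 the highest.

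The platelet chemokines did not move together. Pf4 was at 7.56, 17.9 and 6.59 CPM across shControl replicates 1 to 3 and at 14.1, 9.68 and 14.3 CPM across shThoc1 replicates 1 to 3. The highest value was in shControl replicate 2, the groups overlapped, and the log2 fold change was 0.25 (SE 0.46, adjusted p = 0.779 by edgeR). Pf4 is also made by some tissue macrophages of the mouse. Ppbp was at 1.12, 1.91 and 3.59 CPM with the control hairpin and at 13.4, 2.96 and 8.25 CPM with the Thoc1 hairpin, with overlap through shControl replicate 3 and shThoc1 replicate 2 (log2 fold change 1.89, SE 0.71, adjusted p = 0.304 by edgeR). As a share of the Pf4 and Ppbp counts, Ppbp took 12.9%, 9.64% and 35.3% in shControl and 48.7%, 23.4% and 36.6% in shThoc1. The groups overlapped, and without shThoc1 replicate 2 they did not, with means of 19.3% and 42.7%. The neighbouring chemokine genes of the same cluster had no common direction, with 2 of 4 tested above 0. Cxcl15, made by lung epithelium, was at 14.7 CPM in shThoc1 replicate 2 and at 326 to 1398 CPM in the other libraries, while Cxcl2, Cxcl3 and Cxcl5, which attract neutrophils, stayed at or under 4.48 CPM.

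Itga2b had the smallest unadjusted p of the members, 0.00862 by edgeR over all tested genes. It was at 2.94, 3.74 and 4.54 CPM across shControl replicates 1 to 3 and at 13.4, 8 and 8.25 CPM across shThoc1 replicates 1 to 3, on 42 to 193 counts. All shThoc1 libraries lay above all shControl libraries (log2 fold change 1.40, SE 0.37, adjusted p = 0.304 by edgeR). With each library left out in turn its log2 fold change stayed between 1.14 and 1.56, the narrowest range among the tested members. Gp9, which encodes a subunit of the von Willebrand factor receptor, was at 0.350, 0.398 and 1.24 CPM with the control hairpin and at 2.5, 0.395 and 2.23 CPM with the Thoc1 hairpin, on 4 to 36 counts, with overlap (log2 fold change 1.36, SE 0.84, adjusted p = 0.419 by edgeR). Its value in shThoc1 replicate 2 lay between those of shControl replicates 1 and 2.

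Gp1bb, a further subunit of that receptor, was the 1 member with a lower mean in shThoc1. It had 12, 20 and 5 counts across shControl replicates 1 to 3 and 7, 0 and 5 counts across shThoc1 replicates 1 to 3, or 0.840, 1.59 and 0.366 CPM and 0.486, 0 and 0.371 CPM. The count of 0 allows a level of up to 0.296 CPM, for counting error only. The gene was not tested for lack of counts, and the groups overlapped. In RefSeq (GRCm38.p6, chromosome 16) it overlaps Septin5, a gene of neurons and of secretion. Septin5 was at 70.2, 24.1 and 54.6 CPM with the control hairpin and 9.59, 11.2 and 10.6 CPM with the Thoc1 hairpin, without overlap (edgeR log2 fold change −2.25, SE 0.41, adjusted p = 0.304). The authors' deposited table has a log2 fold change of −2.27 and an adjusted p of 0.00025 for Septin5. Gp1bb counts per 1000 Septin5 counts ran from 0 to 66.0 over the 6 libraries, so they did not keep a fixed proportion. How much of the Gp1bb count comes from reads of Septin5 was not tested.

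**Figure D3:**
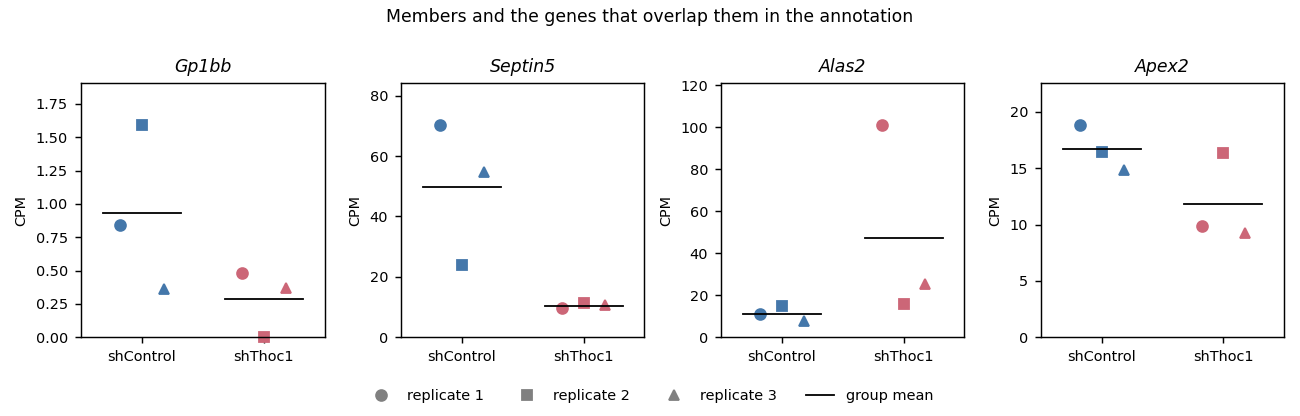
CPM (vertical axis, linear from 0, a separate scale for each gene) of Gp1bb and Alas2 and of the genes that overlap them in the annotation, Septin5 and Apex2, with 1 point per library and a line at the group mean. Gp1bb and Septin5 have lower means in shThoc1 (Septin5 at 10.5 against 49.7 CPM), and Apex2 stays under 19 CPM where Alas2 reaches 101 CPM.

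Further platelet genes were mostly above 0. Of 12 tested receptor genes, 10 lay above 0 with a median log2 fold change of 0.52. Of 15 tested granule, enzyme and cytoskeleton genes, 14 lay above 0 with a median of 0.97, and 5 were higher with an unadjusted p under 0.05 by edgeR. Among all tested genes, 52.1% lay above 0 and 6.93% were higher with such a p. None of either list was called by edgeR. Genes of some other cells also lay mostly above 0: 10 of 12 endothelial, 7 of 8 blood monocyte and 7 of 9 lung epithelial genes. Their median log2 fold changes were 0.74, 0.52 and 0.61. Of the neutrophil genes 5 of 10 lay above 0, and of the neuroendocrine and dividing cell genes 0 of 8 each. In the authors' deposited table, Nbeal2 has an adjusted p of 0.00375 and Alox12 of 0.000691. Nbeal2, needed for alpha granules, was at 28.3, 30 and 27.3 CPM with the control hairpin and 67.1, 46.7 and 54.2 CPM with the Thoc1 hairpin (edgeR log2 fold change 0.97, SE 0.20, adjusted p = 0.304). Alox12, the platelet lipoxygenase gene, was at 2.45, 2.07 and 2.86 CPM and at 10.1, 6.72 and 7.43 CPM (edgeR log2 fold change 1.72, SE 0.35, adjusted p = 0.304). Neither overlapped between the groups. Plek, Fermt3 and Rgs18 of the same list were also higher in shThoc1 without overlap, as were 11.1% of all tested genes. Plek, the pleckstrin gene shared with leukocytes, was at 49.8 ± 11.5 and 94.0 ± 30.6 CPM, highest in shThoc1 replicate 2.

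In none of the 14 further receptor genes were the groups without overlap. Itgb3, which encodes the partner of ITGA2B and is also made by endothelium and macrophages, was at 29.3 ± 15.6 CPM with the control hairpin and 31.6 ± 2.25 CPM with the Thoc1 hairpin. The thrombin receptor genes F2r and F2rl3 were at 176 ± 93.2 and 144 ± 71.2 CPM and at 2.07 ± 2.35 and 0.538 ± 0.316 CPM, the collagen receptor gene Itga2 at 11.8 ± 4.81 and 22.0 ± 9.49 CPM and the ADP receptor gene P2ry1 at 5.00 ± 2.59 and 7.55 ± 1.33 CPM (SD, 3 libraries each). Vwf and Cavin2, at 138 ± 50 and 347 ± 261 CPM and at 214 ± 49.6 and 531 ± 404 CPM, are also endothelial, and both were lowest in shThoc1 replicate 2. Of the platelet genes that missed the filter on low counts, Tubb1 and Gp6 were singled out after the values were seen. F2rl2, which also missed it, had 5, 22 and 0 counts in shControl and 2, 1 and 2 counts in shThoc1. In the authors' deposited table, Tubb1, the tubulin of the platelet rim, has an adjusted p of 0.0301. It had 8, 3 and 3 counts in shControl and 83, 7 and 41 counts in shThoc1, and Gp6, the collagen receptor gene, had 4, 1 and 4 and then 33, 1 and 19 counts. Both were high in shThoc1 replicates 1 and 3 and near the control level in shThoc1 replicate 2.

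Platelet and red cell transcripts did not keep a fixed proportion. The platelet members had 16.5, 17.6 and 25.7 counts per 1000 globin counts across shControl replicates 1 to 3 and 6.02, 15.4 and 14.1 across shThoc1 replicates 1 to 3. The means were 19.9 ± 4.99 and 11.8 ± 5.08 (SD, n = 3 per group), and the groups did not overlap. The gap between them, from 15.4 to 16.5, was small beside the spread. Without shThoc1 replicate 2 the shThoc1 mean was 10.1. The ratio varied 4.26-fold over the libraries, against 1.42-fold for Alas2 to globin and 2.71-fold for the Hbb-bt share of beta counts. Pf4 gave 59.0%, 70.1% and 40.4% of the platelet counts in shControl and 32.1%, 46.0% and 42.8% in shThoc1. Some macrophages also make Pf4, and with it left out the platelet to globin ratios of the groups overlapped. In shControl replicate 2, 225 of 321 platelet counts were Pf4, beside 18251 globin counts. In shThoc1 replicate 3, 192 of 449 were Pf4, beside 31815 globin counts.

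Per kilobase of the longest protein-coding transcript of each gene in GENCODE M21, the order of the levels was the following. In shControl it was Hba-a2 at 651 ± 279, Hba-a1 at 544 ± 243 and Hbb-bs at 339 ± 180 CPM per kb, first by their means. These 3 genes stood in this order within each of the 6 libraries, although the SD between libraries was wide. The order of the alpha pair depended on the lengths used, 554 bases for Hba-a2 and 699 for Hba-a1, and on an uncertain split of reads. In CPM, Hba-a1 was the higher in every shControl library and in shThoc1 replicate 3, and the lower in shThoc1 replicates 1 and 2. Pf4 at 18.2 ± 10.7, Alas2 at 5.49 ± 1.73, Ppbp at 2.04 ± 1.16, Hbb-bt at 1.5 ± 0.488, Itga2b at 1.09 ± 0.233, Gp9 at 0.754 ± 0.571 and Gp1bb at 0.448 ± 0.297 CPM per kb came after them (SD, n = 3). From Ppbp to Gp1bb the order of the genes was not the same in each shControl library. In shThoc1 the first 3 kept their places, at 2656 ± 2372, 1928 ± 1583 and 1346 ± 1183 CPM per kb. Alas2 at 23.3 ± 23.0 and Pf4 at 21.6 ± 4.43 CPM per kb had changed places by their means, within the spread. This rested on shThoc1 replicate 1, at 49.7 against 24 CPM per kb, and Pf4 stayed higher in shThoc1 replicates 2 and 3. Hbb-bt at 12.7 ± 13.1 and Ppbp at 7.58 ± 4.82 CPM per kb had also changed places by their means. Ppbp lay above Hbb-bt in shControl replicate 3 (3.31 and 1.35) and shThoc1 replicate 2 (2.74 and 2.53), and below it in the other libraries. Itga2b at 2.88 ± 0.889, Gp9 at 1.94 ± 1.30 and Gp1bb at 0.137 ± 0.122 CPM per kb kept theirs.

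Markers of other cells moved between the libraries too. The summed level of 12 endothelial genes was 1403, 2859 and 1304 CPM with the control hairpin and 4943, 380 and 3896 CPM with the Thoc1 hairpin, and that of 9 lung epithelial genes was 12909, 23419 and 21312 CPM and 43337, 9698 and 37429 CPM. Both sums were highest in shThoc1 replicates 1 and 3, as was globin, and lowest in shThoc1 replicate 2, where globin was not. Not every gene followed its sum. In shThoc1 replicate 2 Scgb1a1 made up 8985 CPM of the epithelial sum, and Epcam was highest there, at 138 CPM. Of the endothelial genes, Cd34 and Emcn were highest in shControl replicate 2, at 405 and 151 CPM, and the rest in shThoc1 replicate 1 or 3. Blood monocyte genes summed to 413, 416 and 260 CPM with the control hairpin and to 1364, 280 and 722 CPM with the Thoc1 hairpin. Much of this sum was Chil3, at 268, 241 and 78.1 CPM and at 1151, 41.9 and 507 CPM. The monocyte genes did not move as 1. Ly6c2 and Plac8 were highest in shThoc1 replicate 2, at 87 and 79.3 CPM, while Chil3 and Vcan were lowest there, at 41.9 and 16.8 CPM. The neutrophil gene S100a9 was at 51.7, 124 and 125 CPM and at 242, 11.5 and 127 CPM. The sum of the neutrophil list, 3358 CPM in shThoc1 replicate 2 against 414 to 763 CPM elsewhere, is set there by Ltf, at 3284 CPM, which secretory epithelia also make.

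Genes of dividing cells ran against the blood transcripts, with a summed level of 1327, 635 and 1251 CPM with the control hairpin and 52.6, 625 and 112 CPM with the Thoc1 hairpin, without overlap. The neuroendocrine list summed to 709, 94.0 and 638 CPM and to 21.1, 273 and 23.3 CPM. The 2 libraries with the fewest dividing cell transcripts, shThoc1 replicates 1 and 3, were those with the most globin, and shControl replicates 1 and 3, with the most, had the least globin. Marrow cells left little trace, with Mpo of granulocyte precursors at 0 to 5 counts and the antimicrobial granule gene Camp at 0 to 4 counts, while Kit and Gata2, which lung cells also make, were at 26.2 to 270.0 and 2.86 to 193 CPM. The mast cell genes Cpa3, Mcpt4 and Tpsb2 had 68, 74 and 79 counts in shThoc1 replicate 2 and at most 7 counts elsewhere. The part of tissue makeup in the level of the blood transcripts was not tested.

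**Figure D4:**
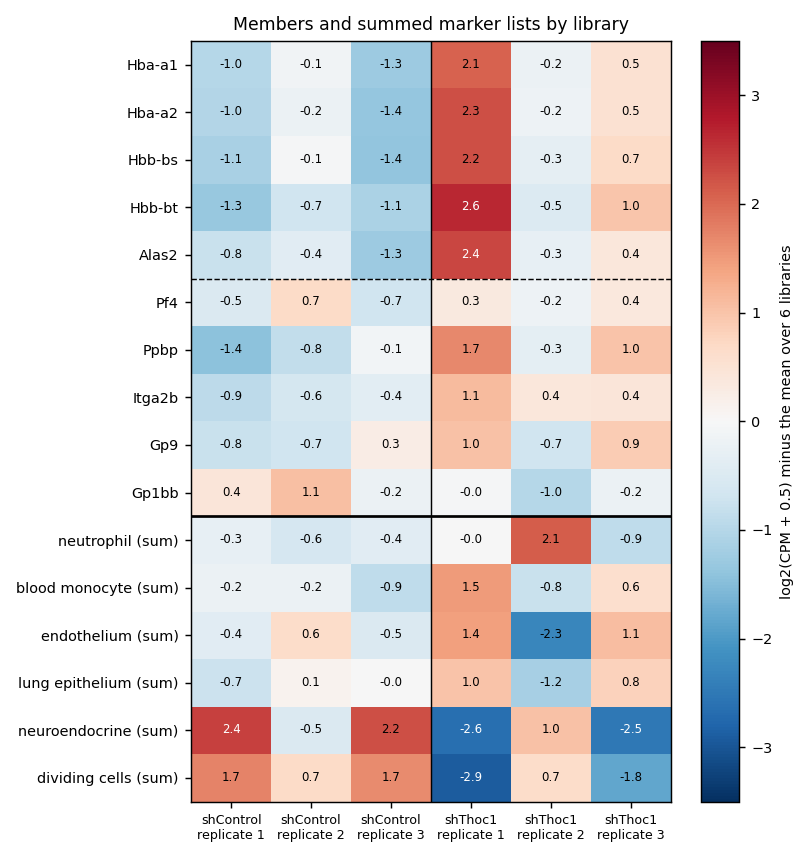
Level of each member and summed level of 6 marker lists in the 6 libraries (columns), as log2(CPM + 0.5) minus the mean of the row, in colour and digits (red above, blue below). The globin genes and Alas2 share 1 profile with a peak in shThoc1 replicate 1, the platelet genes are mixed, and dividing cells and endothelium mark shThoc1 replicate 2 as unlike the other shThoc1 libraries (380 CPM of endothelial genes against 4943 and 3896).

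With 1 library left out, the direction held for every tested member but Pf4. The fold changes of the red cell genes were smallest without shThoc1 replicate 1, at log2 0.91 for Hba-a1, 1.00 for Hba-a2, 0.99 for Hbb-bs, 1.79 for Hbb-bt and 0.89 for Alas2. Their largest values were 2.22, 2.40 and 2.48 without shControl replicate 2 for the first 3, and 3.5 and 2.44 without shThoc1 replicate 2 for Hbb-bt and Alas2. Ppbp ran from 1.32 to 2.43 and Gp9 from 0.95 to 2.17, each lowest without shThoc1 replicate 1 and highest without shControl replicate 3. Pf4 ran from −0.01 without shControl replicate 3 to 0.83 without shControl replicate 2. Without shThoc1 replicate 2 the log2 fold change was 2.14 for Hba-a1, 2.36 for Hba-a2, 2.34 for Hbb-bs, 2.22 for Ppbp, 1.47 for Itga2b, 1.75 for Gp9 and 0.34 for Pf4. In none of these edgeR fits was a member called, also not in the fit without shThoc1 replicate 2, where the adjusted p was 0.0544 for Hbb-bt.

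**Figure D5:**
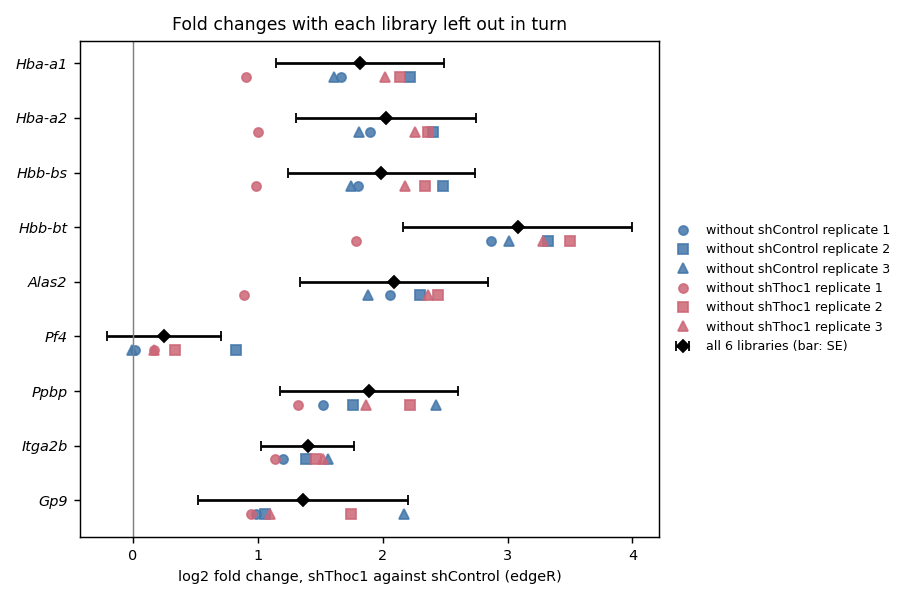
Log2 fold change of shThoc1 against shControl (horizontal axis, edgeR) of the 9 tested members, with all libraries (diamond, bar for the SE) and with each library left out (coloured points). For the globin genes and Alas2 the point without shThoc1 replicate 1 stands to the left, at 0.89 to 1.79, and Itga2b has the narrowest spread, 1.14 to 1.56.

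The genes whose level followed globin most closely over the 6 libraries, by Pearson's r of log2(CPM + 0.5) among 13359 genes, were Hbb-b1, which repeats the counts of Hbb-bs, then Qsox1 (r = 1.00), Mpv17 (0.99), Sh2b3 (0.99) and Klhl25 (0.98). For the platelet sum they were Baiap2l1 (1.00), Naalad2 (0.99), Sqstm1 (0.99), Msrb1 (0.99) and Mxd1 (0.99). The measure ignores the size of the change. Qsox1 went from 179 to 306 CPM where globin changed 11.5-fold. An r of at least 0.9 was reached by 239 genes (1.79%) for globin and by 661 (4.95%) for the platelet sum.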

How the data were processed

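The authors deposited 1 table of raw counts per gene for 6 libraries, with no normalization, and beside it the log2 fold change, p-value, adjusted p-value, test score and mean signal of their own comparison, per the file headers. The build was GRCm39, per the submitters' processing notes, and the aligner, the counter and the use of strand were not given in the sources used here. Every per-sample column matched a sample title. Replicates were numbered in the order of the records and pair nothing.

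Counts were tested with edgeR 4.0.16 (R 4.3.3; glmQLFit and glmQLFTest, filterByExpr, TMM scaling, robust estimates) on all 19639 genes, with Benjamini-Hochberg adjustment over the 15287 that passed the filter, and called at an adjusted p under 0.05. CPM use TMM-scaled library sizes. Single genes also had an exact permutation test on log2(CPM + 0.5). The code was tested on simulated counts. Alternatives were other scalings and filters, DESeq2 1.42.0, limma-voom 3.58.1 with sample quality weights, leaving out each library, summing shThoc1 replicates 2 and 3, whose titles share a first number, summing globin copies, and, chosen after seeing the data, leaving out Hbb-b1 and counting overlap without each library. Intervals of shares are 95% Wilson intervals.

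The members and the 15 other gene lists were chosen with earlier results of these data known. The genes named are the members, per list the 3 with the smallest p and the 2 with the highest level (for other cell types mostly as sums), the 5 most alike in pattern, Thoc1 and overlapping genes. Slc4a1, Klf1, Gata1, Hbq1a, Tubb1, Gp6, F2rl2, Fermt3, Rgs18, Ucp1, Mpo, Camp, Cpa3, Mcpt4, Tpsb2, Emcn and Cd34 lie outside this rule. They were named after their values were seen. Sequences come from GENCODE M21 and RefSeq tables of GRCm38, another build than that of the counts. Some genes of the lists are not reported here.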

Additional observations from a re-analysis of the deposited data

How the results depend on the processing

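The count of genes called by edgeR was 0 with every scaling and filter, with shThoc1 replicates 2 and 3 or the globin copies summed, and without Hbb-b1. It was 929 with DESeq2 and 6817 with limma-voom and sample quality weights, and with 1 library left out it ran from 0 to 258, the latter without shThoc1 replicate 2. The cause of these differences was not tested. The members higher in shThoc1 with no overlap were 4 to 8 with 1 library left out, against 12.9% to 28% of all tested genes. They were 8 without shThoc1 replicate 2, against 28%, and 7 without shControl replicate 2, against 21.7%. With fewer libraries, groups separate more easily. The difference in summed globin level was 2587 CPM on total counts and 910 to 3872 CPM with 1 library left out, and that of the platelet members 13.5 CPM and 8.96 to 20.4 CPM. Of 157 fold changes of single members under the alternatives, 147 kept their direction and their side of the threshold, 9 passed it (with DESeq2 or sample quality weights) and 1 reversed, that of Pf4, to −0.01 without shControl replicate 3 (range −0.01 to 0.83 with 1 library left out). Gp1bb, untested in the main fit, had a log2 fold change of −1.62 with no filter (adjusted p = 0.467 by edgeR). No paired analysis was possible because the replicate numbers only follow the order of the records and link no shControl library to a shThoc1 library. Depth limits Gp9, Gp1bb and Hbb-bt, with under 20 counts in at least 3 libraries each.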
